A study of Mus musculus with 8 samples.

Results

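A germ cell in meiosis makes many mRNAs well before their proteins are used, and a set of RNA-binding proteins stores, stabilises, polyadenylates or translates those mRNAs. Y-box proteins package mRNA in the cytoplasm, DAZ-family proteins and CPEB1 recruit poly(A)-binding and polyadenylation factors to chosen transcripts, Pumilio proteins repress translation, and ELAVL1 protects mRNAs with AU-rich elements. The 10 genes described here are Ybx1, Ybx2 (also called Msy2), Ybx3 (Csda on the array), Dazl, Boll, Cpeb1, Pabpc1, Eif4g3, Elavl1 and Pum2, and every array probe annotated to one of them was taken. They have 20 probes on an array of 45281 probes that names 19057 genes. RNA came from whole testes of 8 male C57BL/6 mice at 16 dpp (days post partum). The animals were 4 Tex19.1-/- and 4 Tex19.1+/- mice, and the labels call the animals of each genotype biological replicates. Tex19.1 encodes a mammal-specific germ cell protein, and its loss disturbs meiosis in males. The mutation had been backcrossed to C57BL/6 for only a few generations. The study's methods describe the control littermates as wild type and heterozygous, whereas the labels give all 4 as heterozygous. Each testis was hybridized to an Illumina Mouse WG-6 v2.0 Beadchip.

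A probe was kept when its detection p-value was under 0.01 in at least 1 array. This held for 16 of the 20 probes, which cover 9 of the 10 genes, and 11 of the 16 were detected in all 8 arrays. All levels are log2 normalized signals, differences are Tex19.1-/- minus Tex19.1+/-, and a probe was called where limma gave it an adjusted p no higher than 0.01, with adjustment over the 19089 kept probes. A level at one probe cannot be set against the level at another, so only differences between genotypes are compared. The Tex19.1 probe checked the genotype labels. It read 5.36, 5.72, 5.57 and 5.54 in Tex19.1-/- testes, where it was detected in 0 of 4 arrays, against 8.36, 8.32, 7.88 and 7.99 in Tex19.1+/- testes, at least 4.33-fold lower. Markers of mid to late pachytene spermatocytes were lower in Tex19.1-/- testes, and their values stand beside the Y-box results. In whole testis, fewer cells of a type and less RNA per cell cannot be told apart.

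Among the 16 kept probes, 2 were called lower in Tex19.1-/- testes, both of Ybx2, and 0 were called higher. Of all kept probes, 1.63% were called lower and 0.141% higher. At an unadjusted p under 0.05 in limma, 4 of the 16 were lower and 0 higher, beside 7.93% and 5.87% of all kept probes. The genotypes did not overlap at 4 of the 16 probes, and all 4 were lower in Tex19.1-/- testes and belonged to Ybx2, Ybx3 and Ybx1. Over all kept probes the genotypes were without overlap in the lower direction at 6.06% and in the higher direction at 4.18%. The median log2 change of the 16 probes was -0.13, beside 0.02 over all kept probes. The 10 kept probes of Dazl, Boll, Cpeb1, Pabpc1, Elavl1 and Pum2 had log2 changes between -0.25 and 0.34, with no adjusted p below 0.41.

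**Figure D1:**
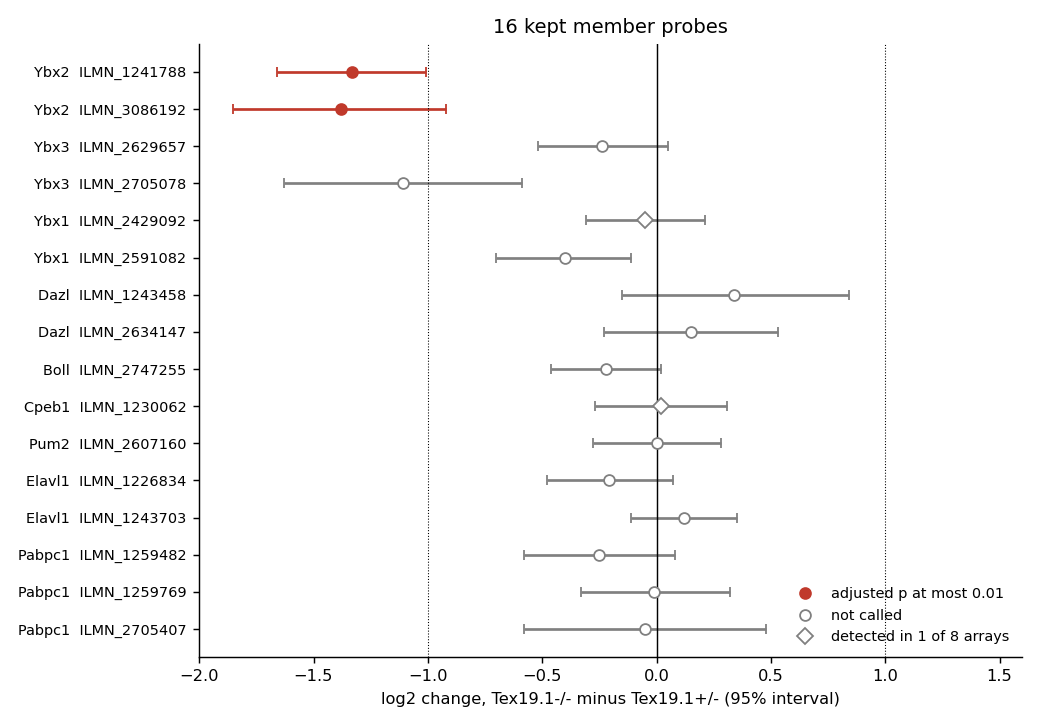
Log2 change of each of the 16 kept probes (x axis, Tex19.1-/- minus Tex19.1+/-) with its 95% interval from limma, 1 row for each probe (y axis). The 2 filled points, both of Ybx2, passed an adjusted p of 0.01. Open diamonds are the Cpeb1 and Ybx1 probes detected in 1 of 8 arrays, whose differences are not read as folds. The Ybx3 probe at -1.11 and the Ybx1 probe at -0.40 have intervals below 0 and were not called.

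Ybx2, the germ cell Y-box protein that coats and stores mRNA in spermatocytes and spermatids, had the largest decrease of the 9 genes with a kept probe. Probe ILMN_3086192 read 9.70, 9.31, 10.23 and 9.79 in the 4 Tex19.1-/- testes, against 10.83, 11, 10.93 and 11.79 in the Tex19.1+/- testes. The lowest Tex19.1+/- testis was 0.60 log2 units above the highest Tex19.1-/- testis. The mean was 9.76 ± 0.38 in Tex19.1-/- testes and 11.14 ± 0.44 in Tex19.1+/- testes (SD, n = 4 each), a log2 change of -1.38 with a standard error of 0.22 (limma, adjusted p = 0.0024). The Ybx2 signal in Tex19.1-/- testes was 38.4% of that in Tex19.1+/- testes. This call was lost without Tex19.1-/- replicate 1 and without Tex19.1-/- replicate 4 (limma, adjusted p = 0.012 in both).

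The second Ybx2 probe gave the same picture. ILMN_1241788 read 7.50, 7.37, 7.86 and 7.54 in Tex19.1-/- testes, against 8.58, 9.08, 8.71 and 9.23 in Tex19.1+/- testes. The genotypes were separated by 0.73 log2 units. The log2 change was -1.33 with a standard error of 0.15 and a 95% interval from -1.66 to -1.01 (limma, adjusted p = 0.00037). Within each array the difference between the pair of Ybx2 probes was 2.19 ± 0.18 in Tex19.1-/- testes and 2.24 ± 0.27 in Tex19.1+/- testes (SD, n = 4 each), and the 95% interval of the difference between genotypes ran from -0.44 to 0.34. At both probes the highest Tex19.1-/- testis was replicate 3 and the highest Tex19.1+/- testis was replicate 4. The remaining Ybx2 probe, ILMN_3014935, was not detected in any array and lay between 5.14 and 5.73 in Tex19.1-/- testes and between 5.31 and 5.95 in Tex19.1+/- testes. Ybx2 lies on chromosome 11, as Tex19.1 does, and alleles carried along with the mutation were not examined.

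Ybx3, another Y-box protein of the male germ line that also binds promoters, was lower in every Tex19.1-/- testis but was not called. ILMN_2705078 read 7.62, 7.73, 8.08 and 7.70 in Tex19.1-/- testes, against 8.44, 8.37, 9.03 and 9.72 in Tex19.1+/- testes. The gap between the genotypes was 0.29 log2 units, and the Tex19.1+/- testes spread more than the Tex19.1-/- testes, with standard deviations of 0.20 in Tex19.1-/- and 0.63 in Tex19.1+/- animals. The log2 change was -1.11 with a standard error of 0.24 (limma, adjusted p = 0.020). With the replicate number as a block the same change was called (limma, adjusted p = 0.0019), and 3 of the 16 kept probes were then called lower, where 2.46% of all kept probes were. It was also called without Tex19.1+/- replicate 2 (limma, adjusted p = 0.0069). Leaving out any other animal gave no call, with an adjusted p of up to 0.079, without Tex19.1-/- replicate 1 (limma). The dim probe ILMN_2629657, detected in 1 of 4 Tex19.1-/- and 3 of 4 Tex19.1+/- arrays, had a log2 change of -0.24 (limma, adjusted p = 0.47). ILMN_1234336 was not detected in any array.

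Ybx1, the widely expressed Y-box protein, had a smaller difference. ILMN_2591082 read 12.82, 12.54, 12.72 and 12.52 in Tex19.1-/- testes, against 12.86, 12.87, 13.04 and 13.45 in Tex19.1+/- testes. The genotypes were only 0.03 log2 units apart at their nearest animals, and Tex19.1+/- replicate 4 stood highest. The log2 change was -0.40 with a standard error of 0.14 (limma, adjusted p = 0.17). It became 0.06 when arrays were scaled by their medians, a setting that moved the median of all kept probes to 0.14. ILMN_2429092 was detected in 1 of the 8 arrays, and its computed log2 difference of -0.05 is not read as a fold. ILMN_1218262 was detected in none. A processed pseudogene of Ybx1 is annotated, and signal from such a copy cannot be told apart from that of Ybx1 here.

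**Figure D2:**
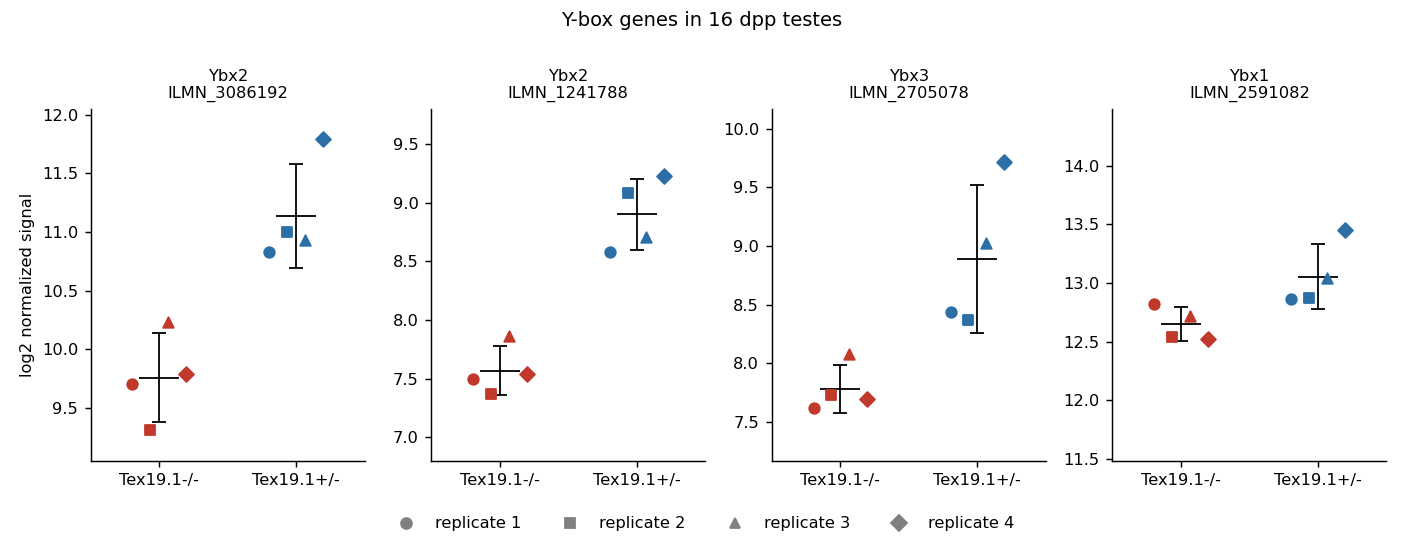
Log2 normalized signal (y axis) of 4 Y-box probes in each Tex19.1-/- and Tex19.1+/- testis (x axis). Each point is 1 animal, with its replicate number as the symbol, bars give the mean and SD of 4 animals, and each panel spans 3 log2 units. The genotypes are apart at both Ybx2 probes and at Ybx3, and nearly touch at Ybx1.

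The 3 Y-box genes were also set side by side within arrays, by subtracting the log2 signal of one probe from that of the other. These pairs were chosen after their values were seen, so the values are a description with no test. The size of such a difference depends on how each probe responds and does not give the relative amounts of the mRNAs. Only the genotypes are compared for each pair. Ybx2 at ILMN_3086192 minus Ybx1 averaged -2.90 ± 0.34 in Tex19.1-/- testes and -1.91 ± 0.20 in Tex19.1+/- testes (SD, n = 4 each). It lay between -3.23 and -2.49 in Tex19.1-/- and between -2.12 and -1.65 in Tex19.1+/- animals, without overlap. Ybx3 minus Ybx1 averaged -4.87 ± 0.24 in Tex19.1-/- testes and -4.16 ± 0.36 in Tex19.1+/- testes. Ybx2 minus Ybx3 averaged 1.97 ± 0.26 in Tex19.1-/- testes and 2.25 ± 0.33 in Tex19.1+/- testes, and there the genotypes overlapped.

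The Y-box is an inverted CCAAT element, the DNA sequence for which these proteins were named. Because the 3 genes had the largest decreases among the members, their promoter windows are shown for comparison. The windows come from RefSeq on GRCm38.p6, run from 250 bases before to 50 after an annotated start, and are written 5′ to 3′ on the gene's strand with CCAAT on either strand (CCAAT or ATTGG) in capitals. The Ybx2 window is chr11:69935649-69935948 (plus strand, the more upstream of 2), that of Ybx3 is chr6:131388401-131388700 (minus strand) and that of Ybx1 is chr4:119294464-119294763 (minus strand).
Ybx2: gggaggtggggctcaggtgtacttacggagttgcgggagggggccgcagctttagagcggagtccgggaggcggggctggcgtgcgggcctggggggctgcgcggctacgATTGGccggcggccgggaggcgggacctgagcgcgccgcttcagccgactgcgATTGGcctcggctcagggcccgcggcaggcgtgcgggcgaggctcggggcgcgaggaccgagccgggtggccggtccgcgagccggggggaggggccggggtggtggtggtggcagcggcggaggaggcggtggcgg
Ybx3: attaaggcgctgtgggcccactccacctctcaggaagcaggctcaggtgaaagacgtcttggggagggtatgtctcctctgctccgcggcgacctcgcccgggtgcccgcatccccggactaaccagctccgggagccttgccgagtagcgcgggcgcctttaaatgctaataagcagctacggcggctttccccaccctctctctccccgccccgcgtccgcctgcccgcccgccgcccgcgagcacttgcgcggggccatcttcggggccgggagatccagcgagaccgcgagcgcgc
Ybx1: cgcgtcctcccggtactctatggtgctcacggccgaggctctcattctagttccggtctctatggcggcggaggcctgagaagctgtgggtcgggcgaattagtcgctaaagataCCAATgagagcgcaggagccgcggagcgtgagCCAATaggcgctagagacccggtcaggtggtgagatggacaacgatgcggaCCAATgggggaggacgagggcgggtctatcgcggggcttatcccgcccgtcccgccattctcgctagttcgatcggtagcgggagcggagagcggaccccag
The Ybx2 window held 2 matches, both as ATTGG, at positions -140 and -87 from the start. That of Ybx1 held 3, all as CCAAT, and that of Ybx3 held 0. At least 1 match was present in 37.4% of the 32851 windows in the table, at least 2 in 11.7% and at least 3 in 3.37%. Any relation between these match counts and the decreases was not tested. A match in a window of letters is a description and not a binding site.

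Markers of mid to late pachytene spermatocytes moved in the same direction as Ybx2 and Ybx3. Of 14 listed markers 13 were on the array and 10 were kept, and 6 of the 10 were called lower and 0 higher, with a median log2 change of -1.27. Over all 10904 genes with a kept probe, 1.98% were called lower and 0.110% higher. The summed signal of the 10 markers ranged between 5480 and 8933 in Tex19.1-/- testes and between 15296 and 22290 in Tex19.1+/- testes. Such a sum is set mostly by the brightest probes. These were Hspa2, at a mean of 12.38 in Tex19.1-/- and 13.03 in Tex19.1+/- testes, and Ldhc, at 9.20 and 12.31. Pgk2, Adam3, Ccna1 and Spata16 were detected in 0 of 4 Tex19.1-/- arrays. Early meiotic prophase markers had 1 of 8 called lower, Spo11, with a summed signal of 2818 to 3099 in Tex19.1-/- testes and 3300 to 4007 in Tex19.1+/- testes. Both kept spermatid markers were detected in 0 of 4 Tex19.1-/- arrays. Spermatogonial, Sertoli, Leydig, peritubular myoid, macrophage and endothelial markers had 0 called in either direction in limma. At an unadjusted p under 0.05, 1 of 6 spermatogonial, 1 of 8 Sertoli, 1 of 4 Leydig and 2 of 3 macrophage markers were higher, and 0 of 4 myoid and 0 of 4 endothelial markers differed. At the same limit 10 of 10 pachytene, 4 of 8 early prophase and 1 of 2 spermatid markers were lower. Over all genes 8.71% were lower and 6.76% higher at this limit. Pgk2, Adam3, Ccna1, Spata16 and both spermatid markers passed the detection filter through Tex19.1+/- arrays only. That by itself favours a lower value in Tex19.1-/- testes, so the pachytene and spermatid counts partly reflect the filter. Adam3 is among the 6 called. The part of cell composition in the Ybx2 and Ybx3 values was not tested.

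The 5 genes whose levels over the 8 arrays were most like those of Ybx2 at ILMN_1241788 were taken by Pearson correlation over 10895 genes, as a description in which the genotype difference is shared by all points. Spo11, which makes the DNA breaks of meiotic recombination, had r = 0.996. Cfap65, a protein of sperm flagella, had r = 0.995, and Sdr39u1, a short-chain dehydrogenase family gene, had r = 0.992. Crat, carnitine acetyltransferase, had r = 0.989, and Psma8, a proteasome subunit of meiotic cells, had r = 0.988. All 5 were called lower in Tex19.1-/- testes, with log2 changes between -0.63 for Spo11 and -1.70 for Cfap65 (limma, adjusted p of 0.0042 and 0.00075). They were chosen for following a probe that was itself called lower, so these calls are not a separate result.

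Dazl, which binds germ cell mRNAs and promotes their translation, was detected in all 8 arrays at both probes, and neither was called. ILMN_1243458 read 7.17, 7.0, 7.68 and 7.65 in Tex19.1-/- testes, against 6.92, 6.34, 7.51 and 7.37 in Tex19.1+/- testes. The genotypes overlapped widely, yet in each replicate number the Tex19.1-/- animal was the higher. The labels do not say what a number marks. The log2 change was 0.34 with a standard error of 0.23 without the replicate block and 0.11 with it (limma, adjusted p = 0.57 and 0.095). At ILMN_2634147 the range was 9.52 to 10.21 in Tex19.1-/- testes and 9.18 to 9.92 in Tex19.1+/- testes, with a log2 change of 0.15 (limma, adjusted p = 0.77). There the Tex19.1-/- animal was the lower in replicate number 3 alone, at 9.56 against 9.81.

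Boll, the DAZ-family relative of Dazl that acts from meiosis onward, read 6.89, 6.77, 6.73 and 6.77 in Tex19.1-/- testes, against 7.21, 6.75, 7.09 and 6.99 in Tex19.1+/- testes at its only probe. The Tex19.1-/- testes lay in a narrow band that Tex19.1+/- replicate 2 shared, and the other Tex19.1+/- testes were above it. The log2 change was -0.22 with a standard error of 0.11 (limma, adjusted p = 0.41).

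Cpeb1, which directs cytoplasmic polyadenylation, was near background at its only probe. It was detected in 0 of 4 Tex19.1-/- and 1 of 4 Tex19.1+/- arrays, at 5.70 to 5.80 in Tex19.1-/- testes and 5.31 to 5.99 in Tex19.1+/- testes. Its computed log2 difference of 0.02 lies between near-background values and is not read as a fold. Pum2, a translational repressor of the Pumilio family, read 7.60, 7.93, 7.35 and 7.53 in Tex19.1-/- testes, against 7.75, 7.44, 7.70 and 7.50 in Tex19.1+/- testes. The animals of both genotypes were intermixed, with a log2 change of 0.00 and a 95% interval from -0.28 to 0.28 (limma, adjusted p = 1.0).

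Elavl1 encodes HuR, a stabilising protein that spermatocytes need. ILMN_1226834 read 7.15, 7.01, 7.12 and 7.19 in Tex19.1-/- testes, against 7.47, 7.01, 7.61 and 7.19 in Tex19.1+/- testes. Tex19.1+/- replicates 1 and 3 were above all the others, and the log2 change was -0.21 (limma, adjusted p = 0.54). The second probe had a log2 change of 0.12 (limma, adjusted p = 0.68), so the pair differed in sign and neither was called.

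Pabpc1, the main cytoplasmic poly(A)-binding protein, had 3 kept probes with log2 changes of -0.25, -0.05 and -0.01 (limma, adjusted p of 0.52, 0.96 and 0.99). The first, ILMN_1259482, read 7.54, 7.13, 6.96 and 6.95 in Tex19.1-/- testes, against 7.69, 7.10, 7.48 and 7.32 in Tex19.1+/- testes. At ILMN_2705407 replicate 2 was the lowest animal of both genotypes, at 6.63 in Tex19.1-/- and 6.48 in Tex19.1+/- testes. Eif4g3, a scaffold of the cap-binding complex that mouse spermatocytes need to leave meiotic prophase, had a single probe that was not detected in any array, at 5.11 to 5.37 in Tex19.1-/- testes and 5.33 to 5.55 in Tex19.1+/- testes. A Ybx2 probe was likewise undetected in every array while others of that gene were detected in all, so this does not show how much Eif4g3 mRNA was present.

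**Figure D3:**
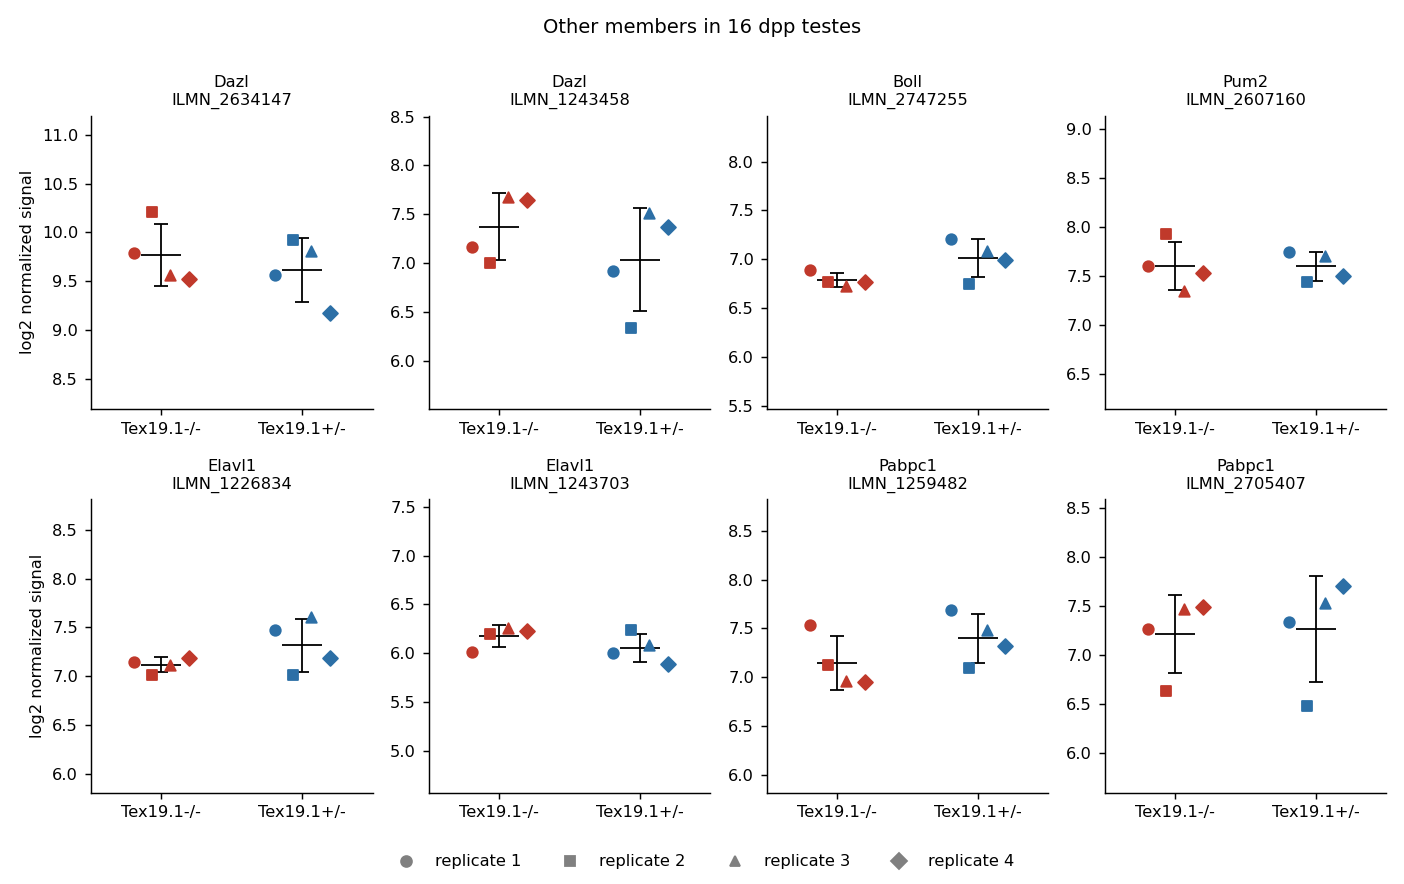
Log2 normalized signal (y axis) of 8 probes of Dazl, Boll, Pum2, Elavl1 and Pabpc1 in each Tex19.1-/- and Tex19.1+/- testis (x axis). Points, symbols and bars are as for the Y-box genes, with mean and SD of 4 animals and 3 log2 units to a panel. Genotypes overlap in every panel.

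A wider list of 86 other translation-control genes, of which 80 were on the array and 68 were kept, was read with 1 probe for each gene. It had 3 genes called lower (4.41%) and 0 called higher, beside 1.98% and 0.11% of all genes. Its median log2 change of 0.03 equalled that of all genes at 0.03. At an unadjusted p under 0.05, 8 of the 68 (11.8%) were lower and 9 (13.2%) higher, beside 8.71% and 6.76% of all genes. Ddx25, an RNA helicase that carries and activates mRNAs in spermatids, read 9.56, 9.10, 9.46 and 9.57 in Tex19.1-/- testes, against 10.53, 10.19, 10.55 and 10.72 in Tex19.1+/- testes. Every Tex19.1-/- animal was below every Tex19.1+/- animal, and the log2 change was -1.07 (limma, adjusted p = 0.00076).

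Khdrbs3, an RNA-binding splicing regulator, read 6.67, 6.75, 6.69 and 6.64 in Tex19.1-/- testes, against 7.52, 7.44, 7.27 and 7.86 in Tex19.1+/- testes, a log2 change of -0.83 (limma, adjusted p = 0.0015). Pabpc2, a poly(A)-binding protein gene of the testis, had the largest decrease of the list. It read 6.01, 5.53, 6.46 and 5.75 in Tex19.1-/- testes, where 2 of 4 arrays detected it, against 7.73, 7.19, 8.30 and 9.70 in Tex19.1+/- testes. The Tex19.1+/- animals themselves spanned a wide range, and the log2 change was -2.29 with a standard error of 0.40 (limma, adjusted p = 0.0050). This call was lost when any of Tex19.1-/- replicates 1, 2 and 4 or Tex19.1+/- replicate 3 was left out (limma, adjusted p of 0.021, 0.018, 0.026 and 0.021), and with limma's trend and robust options (adjusted p = 0.12).

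By group, 2 of the 25 kept germ cell RNA-binding proteins and 1 of the 6 poly(A)-binding proteins and regulators were called lower. Of all genes, 1.98% were called lower. The 8 CPEB, Pumilio, Nanos and DAZ-associated genes, the 10 cap and scaffold factors, the 11 ELAV and stability factors and the 8 poly(A) polymerases and deadenylases had 0 calls in either direction in limma. The initiation factors had a median log2 change of 0.03 and 0 of 10 at an unadjusted p under 0.05. At that limit 1 of the 8 CPEB, Pumilio, Nanos and DAZ-associated genes was lower, and of the 8 poly(A) polymerases and deadenylases 1 was lower and 3 were higher. Of the 25 germ cell RNA-binding proteins 5 were lower and 1 higher, and of the 6 poly(A)-binding proteins and regulators 1 was lower and 1 higher. Of the ELAV and stability factors, 4 of 11 were higher. These counts stand beside the 8.71% lower and 6.76% higher of all genes, and the 3 genes of the whole list with the largest moderated statistic in the higher direction were Elavl3, Zfp36l1 and Zfp36.

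Elavl3, a relative of Elavl1 best known in neurons, read 7.91, 7.84, 8.07 and 7.85 in Tex19.1-/- testes, against 7.34, 7.66, 7.32 and 7.20 in Tex19.1+/- testes, a log2 change of 0.54 (limma, adjusted p = 0.018). Without Tex19.1+/- replicate 2 it was called higher (limma, adjusted p = 0.0046). Its second probe had a log2 change of 0.25 (limma, adjusted p = 0.33). Zfp36l1 and Zfp36, which speed the decay of mRNAs with AU-rich elements, had log2 changes of 0.38 and 0.36 (limma, adjusted p of 0.073 and 0.11). The second Zfp36l1 probe had a log2 change of 0.15 (limma, adjusted p = 0.62).

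Just short of the threshold on the lower side were Rbmxl2 and Papolb, named here after their values were seen. Rbmxl2, a splicing protein of spermatocytes, had a log2 change of -0.56 (limma, adjusted p = 0.018, with the replicate block 0.0081, which is a call). Papolb, the testis cytoplasmic poly(A) polymerase, was detected in 0 of 4 Tex19.1-/- and 4 of 4 Tex19.1+/- arrays and was at least 1.36-fold lower (limma, adjusted p = 0.020). Papolb passed the detection filter through Tex19.1+/- arrays only, which by itself favours a lower value in Tex19.1-/- testes. It is among the genes of the list counted as lower before adjustment. Papolb was called with neqc background correction (limma, adjusted p = 0.0098) and with median scaling that left the lowest probe out of the shift (limma, adjusted p = 0.0065). The other 17 settings gave no call, with an adjusted p of up to 0.55, with median scaling (limma).

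**Figure D4:**
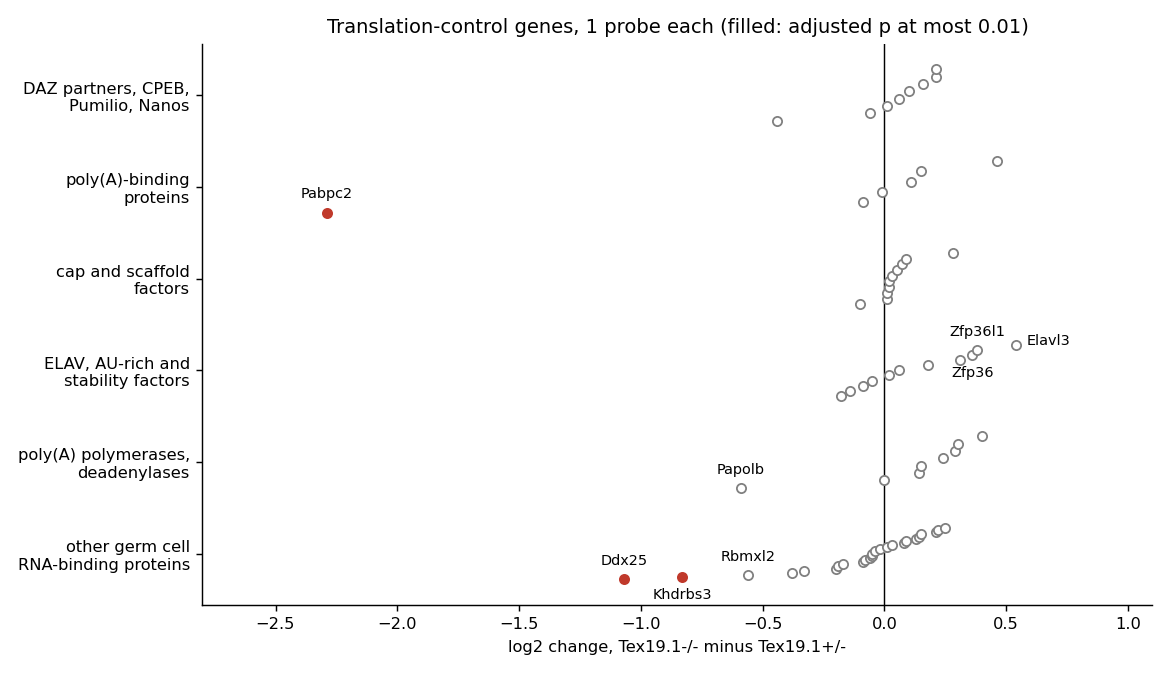
Log2 change (x axis, Tex19.1-/- minus Tex19.1+/-) of the 68 kept translation-control genes, 1 point for each gene, in 6 functional groups (y axis; within a group points are spread vertically by rank). Filled points are the 3 called genes, Pabpc2 at -2.29, Ddx25 at -1.07 and Khdrbs3 at -0.83, and most other points lie within 0.5 of 0.

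A list of 17 mRNAs known as bound by, or dependent for translation on, the 10 regulators had 15 on the array and 8 kept, with a median log2 change of -0.18. Tex19.1 itself, on the list as a Dazl-bound mRNA, was the 1 called at the probe chosen for each gene, and its change follows from the genotype. The median includes Tex19.1, at a computed log2 difference of -2.59, and is therefore not read as a shift of the targets. Hspa2, a chaperone of pachytene spermatocytes whose protein depends on Elavl1 and Eif4g3 in mouse, read 12.64, 12.17, 12.62 and 12.07 at ILMN_1223285 in Tex19.1-/- testes, against 12.80, 13.08, 12.98 and 13.27 in Tex19.1+/- testes. Its log2 change there was -0.65 (limma, adjusted p = 0.028). At its other kept probe, ILMN_3140383, it read 10.30, 10.27, 10.22 and 10.04 in Tex19.1-/- testes, against 10.92, 11.49, 10.95 and 11.38 in Tex19.1+/- testes, a log2 change of -0.98 that was called (limma, adjusted p = 0.0011). Hspa2 was thus lower in every Tex19.1-/- animal at both probes, and ILMN_3140383 alone passed the threshold.

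Pgk2, a glycolytic enzyme gene of spermatocytes and spermatids whose mRNA is stored, was detected in 0 of 4 Tex19.1-/- and 4 of 4 Tex19.1+/- arrays and was at least 1.35-fold lower, which was not called (limma, adjusted p = 0.13). Ddx4, the germ cell helicase VASA, had a log2 change of -0.33 (limma, adjusted p = 0.15). Cdc25c at 0.17, Cdc25b at -0.03 and Tex11 at 0.00 had adjusted p-values between 0.62 and 0.99 in limma, and Akap4 was detected in only 1 of the 8 arrays. Pgk2, Akap4 and Tex19.1 passed the detection filter through Tex19.1+/- arrays only. That by itself favours a lower value in Tex19.1-/- testes.

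The 4 main Y-box probes were followed across 19 other ways of processing or sampling the arrays. Ybx2 and Ybx3 remained lower in Tex19.1-/- testes in all 19, between -1.60 and -1.10 at Ybx2 ILMN_1241788, between -1.57 and -1.06 at Ybx2 ILMN_3086192 and between -1.33 and -0.83 at Ybx3 ILMN_2705078. Ybx1 ranged from -0.47 to 0.06 and was called in 0 of them. The deposited table, the other detection filters, the trend and robust options and the block leave the log2 change unchanged by construction. They bear only on the adjusted p. Leaving out 1 animal could hardly change the sign at Ybx2 and Ybx3, where the genotypes did not overlap. The 19 settings are therefore not 19 separate checks of direction.

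**Figure D5:**
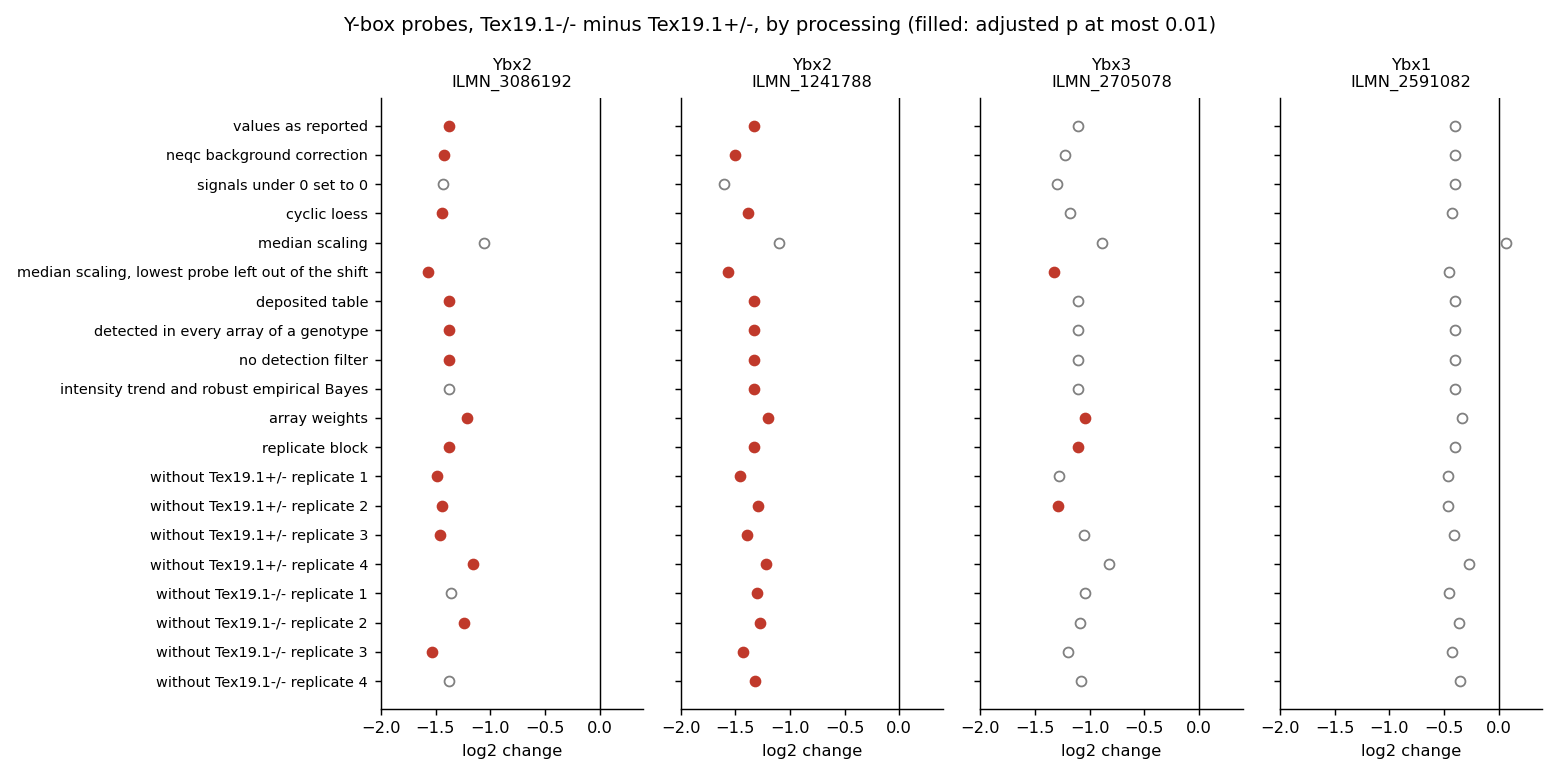
Log2 change (x axis, Tex19.1-/- minus Tex19.1+/-) of 4 Y-box probes as reported and under 19 other settings (y axis). Filled points passed an adjusted p of 0.01. Ybx2 and Ybx3 are below 0 in every row, and Ybx1 crosses 0 with median scaling alone, at 0.06. Rows for the deposited table, the detection filters, the trend and robust options and the block repeat the reported log2 change by construction.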

How the data were processed

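The authors deposited a background-subtracted intensity for each of 45281 probes and 8 arrays, made in BeadStudio, whose version the sources used here do not give, with a detection p-value for each, and a table of log2 values made in lumi by log transformation and quantile normalization. That table served as an alternative. For the report, a constant was added to every array so that its lowest signal became 1, log2 was taken and the arrays were quantile-normalized (limma 3.58.1, R 4.3.3). The values differed from the deposited log2 values by at most 0.0144. Mean signals ranged between 79.0 and 126 in Tex19.1-/- and between 90.8 and 159 in Tex19.1+/- arrays, with 13720 to 14668 probes detected in Tex19.1-/- and 14152 to 15876 in Tex19.1+/- arrays, and the number of arrays limits the precision. The 19089 probes (42.2%) that at least 1 array detected at a p under 0.01 were fitted on genotype alone (lmFit, eBayes), with Benjamini-Hochberg adjustment over all of them. Genes in lists were represented by their kept probe with the highest mean signal. A fold written as at least sets the mean of the detected genotype against the higher, per array, of the probe's value and the lowest detected signal. The fitting code was tested on simulated data.

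Replicate numbers 1 to 4 occur in both genotypes. Deviations from the genotype means correlated between animals of the same number at 0.215, 0.524, 0.103 and 0.226. A fit with the replicate number as a block was therefore run as an alternative, and the main fit used no pairs. The labels do not say what a number marks, and Tex19.1-/- replicate 3 correlated more with Tex19.1+/- replicate 4, at 0.447, and Tex19.1-/- replicate 4 with Tex19.1+/- replicate 3, at 0.230, than with their own numbers.

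Symbols came from the platform annotation, which gives 1 symbol to 34885 probes, several to 18 and none to 10378, updated with RefSeq on GRCm38.p6. Promoter windows were found for 9 of the 10 genes, and those of the Y-box genes were printed. Named genes were all called genes of the wider list, otherwise the 3 with the largest moderated statistic in a direction, all kept targets, and the 5 genes most like the member with the largest statistic. The members and all lists were chosen with earlier results of these data known. Alternatives were other background corrections, normalizations, filters, variance models, array weights, the block and leaving out each animal. Figures were drawn with matplotlib 3.10.9.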

Additional observations from a re-analysis of the deposited data

How the results depend on the processing

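The number of member probes called was 2 and became 0 with signals under 0 set to 0, 0 with median scaling and 1 with limma's trend and robust options. All kept probes called numbered 338, and were 21, 1 and 294 in these settings and 518 with the replicate block. Translation-control genes called lower were 0 with signals under 0 set to 0 and 0 with median scaling, against 3. They were 4 with neqc and 4 with the lowest probe left out of median scaling, where Papolb was added, and 2 with the trend and robust options, where Pabpc2 was lost. Array weights called 1 of them higher. Median scaling rests on a shift set by each array's lowest probe, and that probe was at -112 and -98.7 in Tex19.1+/- replicates 1 and 2, where the second lowest was at -45.7 and -39.4. With the lowest probe left out of the shift, 419 probes were called.

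Ybx2 at ILMN_1241788 was not called with signals under 0 set to 0 (log2 change -1.60, limma adjusted p = 0.024) or with median scaling (-1.10, adjusted p = 0.21). Ybx2 at ILMN_3086192 was not called in these settings (-1.43, adjusted p = 0.062, and -1.06, adjusted p = 0.60) or with the trend and robust options (-1.38, adjusted p = 0.018). Ybx3 at ILMN_2705078 was called with median scaling without the lowest probe (-1.33, adjusted p = 0.0014), with array weights (-1.04, adjusted p = 0.0062) and with the replicate block (-1.11, adjusted p = 0.0019). It was not called with signals under 0 set to 0 (-1.30, limma adjusted p = 0.15) or with median scaling (-0.89, adjusted p = 0.60). The trend and robust options gave no call either (-1.11, limma adjusted p = 0.099). Apart from Ybx3 and Rbmxl2 the replicate block changed no call among the members and the other named translation-control genes. The causes were not tested.

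Leaving out 1 animal at a time gave 1 to 3 member probes called (1 without Tex19.1-/- replicate 1 or 4), 171 to 340 of all kept probes (171 without Tex19.1-/- replicate 4, 191 without replicate 1, 202 without replicate 2, and 220 without Tex19.1+/- replicate 3) and 0 to 1 translation-control genes called higher. Log2 changes ranged from -1.53 to -1.16 for Ybx2 at ILMN_3086192, -1.29 to -0.83 for Ybx3 at ILMN_2705078, -0.12 to 0.0735 for Cpeb1, -0.11 to 0.0852 for Pum2, -0.17 to 0.0738 and -0.32 to 0.14 for Pabpc1 at ILMN_1259769 and ILMN_2705407, and -0.13 to 0.0163 for Ybx1 at ILMN_2429092. The Cpeb1 values and those of Ybx1 at ILMN_2429092 are differences near background and are not read as folds.

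Values near 0 changed sign in some settings. Ybx1 at ILMN_2591082 was at 0.0649 with median scaling, Dazl at ILMN_2634147 at -0.0164 with the lowest probe left out, and Cpeb1 at -0.0517 with neqc and -0.0722 with array weights. Pum2 was at -0.00078 with signals under 0 set to 0, -0.0231 with cyclic loess, -0.15 with the lowest probe left out and -0.0902 with array weights. Pabpc1 at ILMN_1259769 was at 0.11 with signals under 0 set to 0 and 0.0262 with median scaling, and at ILMN_2705407 at 0.088 with median scaling. None of these was called in any setting. Probes detected in few arrays, such as Cpeb1, and Eif4g3, which no array detected, limit what can be said of these genes.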
